A study of Canis lupus familiaris with 24 samples.

Results

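Pieces of the control lung of 3 mongrel dogs were compared by position: 6 pieces from dependent lung, the part that lies lowest under gravity, against 6 from nondependent lung, the part above it. The 12 arrays were chosen from the 24 of the series by their titles, which give the right, non-injured lung and the position. They form 6 pairs, since each dog gave a dependent and a nondependent piece at the apex and again at the base, so both groups hold 3 apical and 3 basal pieces and the 6 pairs come from 3 animals. All 12 pieces came from dogs under pentobarbital anaesthesia and pancuronium paralysis, whose control lung was ventilated at 25 breaths/min for 5 h with 5 cmH2O of positive end-expiratory pressure (PEEP), a pressure held in the airways at the end of each breath. The control lung was itself never lavaged, but the left lung of the same animal was washed with warm saline at 20 ml/kg on 4 occasions, so the control pieces come from animals that carried an injured lung. No piece of unventilated lung or of an animal without lavage was analysed here, and the labels do not state the body position in which the animals lay.

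Gravity gives the lung a gradient. Dependent lung lies under the weight of the tissue above it, its alveoli are smaller at the end of expiration and it receives more of the blood flow, while nondependent alveoli are held wider open and receive less blood. PEEP keeps small airspaces from closing and lessens the uneven filling, and shear from blood flow and stretch of the alveolar wall are both known to change gene expression in endothelial and epithelial cells. The comparison therefore asks whether RNA levels differed between the lower and upper parts of a lung that was ventilated with PEEP and was not lavaged.

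Dog RNA was read on a human array, so a probe set measures a dog transcript only as well as its human probes match it, and signals of different genes were not set against each other. Signals are intensities that the authors had scaled, with a trimmed mean of 149.94 on each of the 12 arrays. Present calls covered 66.32 to 81.81% of probe sets in dependent pieces, against 60.78 to 82.32% in nondependent pieces. The dependent array had the higher share in 5 of 6 pairs, by a mean of 2.05 ± 5.49 percentage points (SD, n = 6 pairs), with an exact two-sided permutation p of 0.375 where 0.0312 is the smallest that 6 pairs allow. The 3' minus 5' signal differed between positions by a mean of 0.00 for GAPDH and 0.08 for ACTB (log2, exact permutation p = 0.969 and 0.656). That of GAPDH was higher in 5 of 6 pairs, by 0.00 to 0.30, against -0.61 at the apex of dog 2. For ACTB the median was below 0 in both groups, -0.82 in dependent and -1.34 in nondependent pieces. These signals come from human probes and cannot be read directly as RNA integrity. The apex nondependent array of dog 3 stood apart: its median correlation with the other 11 arrays was 0.777, against 0.789 to 0.864 for the rest, and it correlated at 0.809 with its partner. Values without that pair are therefore given below for the leading genes. Markers of lung tissue were present: the surfactant protein gene SFTPC, the alveolar type 1 marker AGER and the membrane protein CAV1 were called Present on all 12 arrays. So were 2 of 6 defining alveolar type 2 markers and 4 of 6 type 1 markers. None of 4 defining markers of the pleural mesothelium, the cell layer around the lung, was tested under the detection rule used. Of a wider list of mesothelial markers 5 were tested, and KRT19 and GPM6A were called Present on all 12 arrays. The share of pleura in the pieces was not tested.

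**Figure D1:**
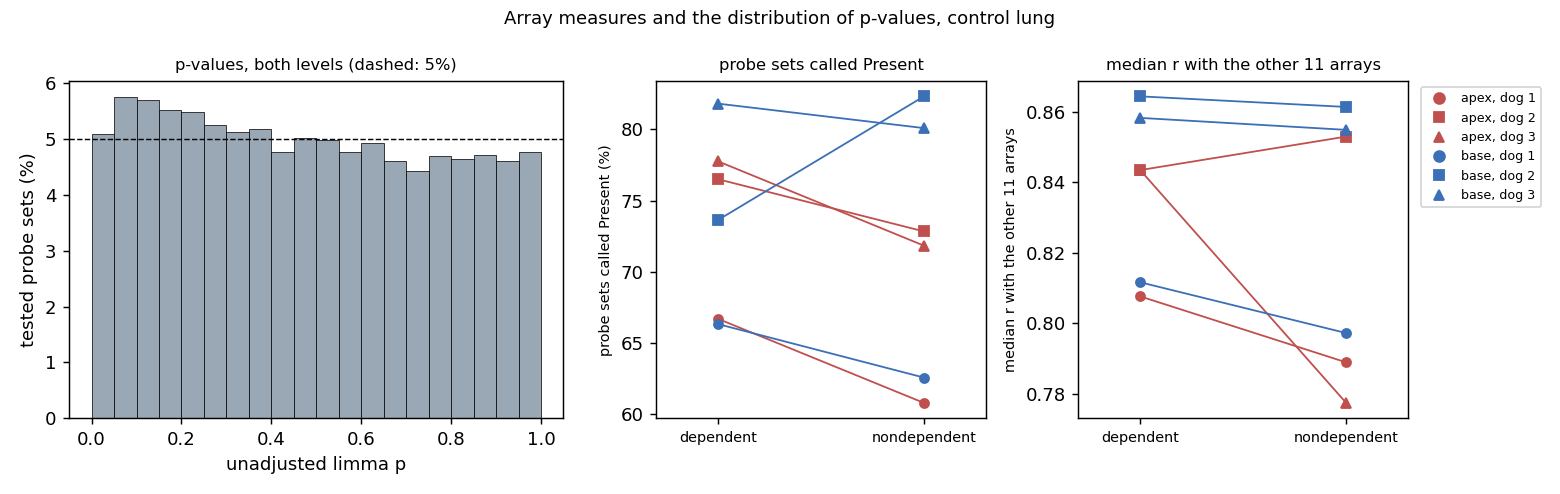
The left panel shows the distribution of unadjusted limma p-values for dependent against nondependent lung in bins of width 0.05 (percent of tested probe sets), the middle panel the percent of probe sets called Present and the right panel each array's median correlation (r) with the other 11 arrays. Colours give the level, symbols the dog and lines join the pieces of a pair. The lowest p bin holds 5.09% of probe sets, dog 1 has the lowest shares of Present calls, and the apex nondependent array of dog 3 has the lowest correlation, 0.777.

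No probe set passed the test of dependent against nondependent lung after correction for the number tested. Of 19605 probe sets, limma with the pair as a block called 0 (0%) at an adjusted p under 0.05, and the smallest adjusted p was 0.711. At an unadjusted p under 0.05 it found 997 probe sets (5.09%), 453 higher (2.31%) and 544 lower (2.77%) in dependent lung. Irrespective of p, 45.8% of probe sets were higher on average and 54.2% lower. The median 95% confidence interval reached 0.50 (log2) to either side of the estimate, and 212 probe sets (1.08%) had a mean difference beyond 1 in either direction. The interval is for a single probe set and is not adjusted for the number tested.

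The 6 pairs also had little in common with one another. Across all probe sets, the dependent minus nondependent differences of any pair correlated with those of another at a median of 0.01, from -0.08 to 0.12 over the 15 combinations, and 8 of the 15 were above 0 (a description over 19605 probe sets, which are not independent). Averaged over probe sets, the mean square between dogs was 0.669 on the log2 scale, against 0.305 for position, 0.315 for level and 0.305 for the residual. Position thus carried no more spread than the residual, and the dogs carried more. A probe set was higher in dependent lung in 6 of 6 pairs in 281 cases (1.43%) and lower in 6 of 6 in 407 (2.08%). All 6 dependent values lay above all 6 nondependent values for 7 probe sets (0.0357%) and below them for 13 (0.0663%).

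The genes with the smallest p are described next by their values. None passed the adjusted threshold, the limma adjusted p of these 20 ran between 0.711 and 0.903, and they were picked by the size of the difference against its error, so these differences are the selected extremes of 19605 probe sets. Among the 20, 19 had the same sign in 6 of 6 pairs, which the choice itself favours. Only TRIM15 had groups that did not overlap.

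**Figure D2:**
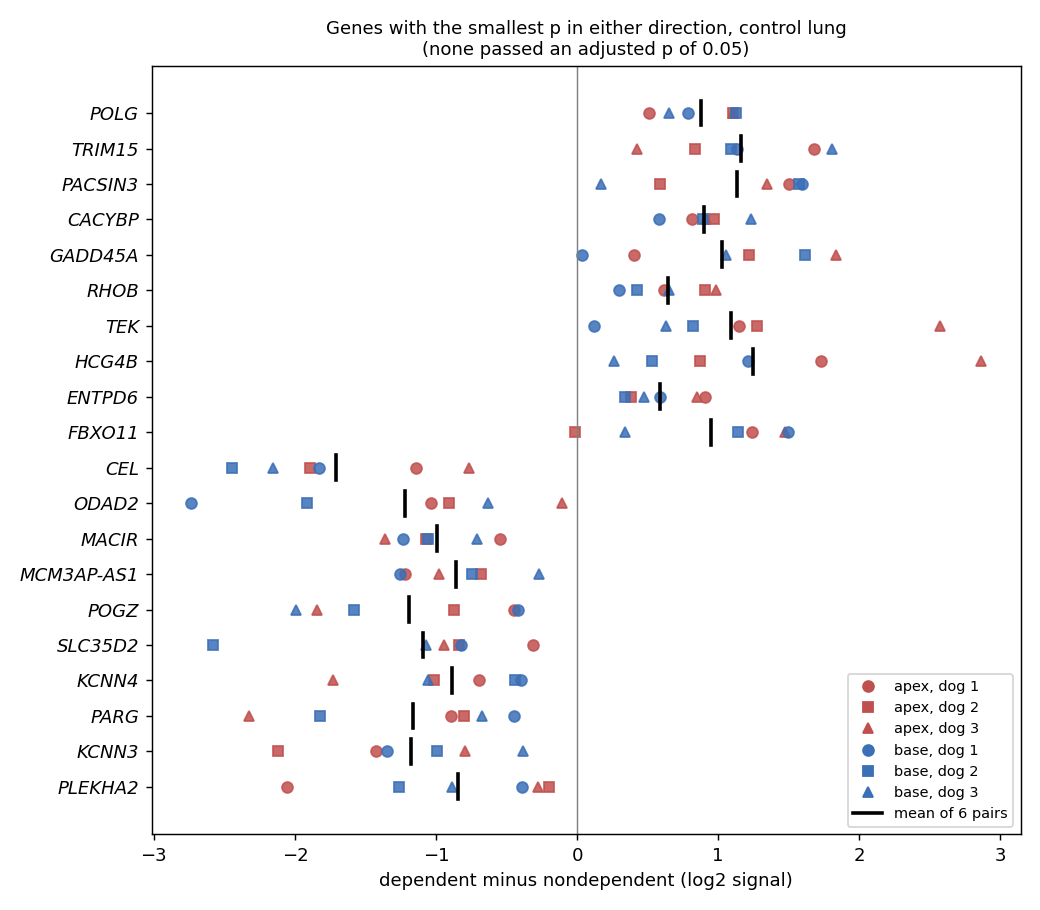
Dependent minus nondependent difference in log2 signal for the 10 genes with the smallest p in each direction, 1 point per pair (colour for the level, symbol for the dog) and a black bar for the mean of the 6 pairs. Every pair lies on the same side of 0 except the apex pair of dog 2 for FBXO11, at -0.01, and no gene passed an adjusted p of 0.05.

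TRIM15, a RING-type ubiquitin ligase of the tripartite motif family, had signals of 208, 281 and 440 (lowest, median and highest of 6) in dependent pieces, against 87.0, 131 and 203 in nondependent pieces. Every dependent piece was thus above every nondependent one, with a log2 difference of 1.16 ± 0.20 (SE, n = 6 pairs). It was called Present on 5 dependent arrays and 1 nondependent array, its other probe sets stood at 0.03 and 0.27, and its symbol was not found in the dog gene table. POLG, the catalytic subunit of the mitochondrial DNA polymerase, had signals of 406, 502 and 702 in dependent pieces, against 188, 288 and 490 in nondependent pieces. The groups overlapped, yet the 6 pair differences lay between 0.51 and 1.13 around a mean of 0.88 ± 0.15, while its other probe set stood at -0.19.

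CACYBP, a partner of the ubiquitin ligase SIAH1 that also binds S100 proteins, had signals of 119, 189 and 225 in dependent pieces, against 79.7, 96.0 and 121 in nondependent pieces. Only the lowest dependent piece lay inside the nondependent range, and the pair differences of 0.58 to 1.24 were among the most even of the set (mean 0.90 ± 0.17). The other 3 probe sets of CACYBP gave 0.40, 0.35 and -0.46. PACSIN3, an adaptor of membrane curvature and endocytosis, averaged 1.13 ± 0.21 higher, with a pair as low as 0.17 at the base of dog 3.

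GADD45A, a growth arrest gene induced by DNA damage and by mechanical stress, had signals of 265, 711 and 1754 in dependent pieces, against 106, 423 and 1019 in nondependent pieces. The groups overlapped widely, and the pair differences averaged 1.03 ± 0.22, from 0.04 at the base of dog 1 to 1.84 at the apex of dog 3. RHOB, an endosomal small GTPase of endothelium that is induced by stress, had signals of 780, 1304 and 1780 in dependent pieces, against 417, 843 and 1055 in nondependent pieces. Its difference was smaller, 0.64 ± 0.14, and ran from 0.30 to 0.98 over the pairs. Both GADD45A and RHOB were called Present on all 12 arrays and each has a single tested probe set.

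TEK, the endothelial receptor for angiopoietins, had signals of 164, 280 and 805 in dependent pieces, against 84.2, 142 and 332 in nondependent pieces. Its mean difference of 1.09 ± 0.26 came with 2.57 in the apex pair of dog 3 and 0.12 at the base of dog 1, and it was called Present on 4 dependent and 2 nondependent arrays. HCG4B, listed as an HLA complex transcript with no symbol in the dog table, averaged 1.25 ± 0.30, while its other probe set, called Present on all 12 arrays, stood at 0.05 with 4 of 6 pairs higher. ENTPD6, an enzyme that splits nucleoside diphosphates, averaged 0.59 ± 0.14, and FBXO11, a substrate receptor of an SCF ubiquitin ligase, 0.95 ± 0.24 with other probe sets at -1.31 and 0.17. Without the apex pair of dog 3, TEK stood at 0.80, HCG4B at 0.92 and GADD45A at 0.87, and the adjusted p of all 20 leading genes was 0.921 except for TRIM15, at 1.31 with 0.383.

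**Figure D3:**
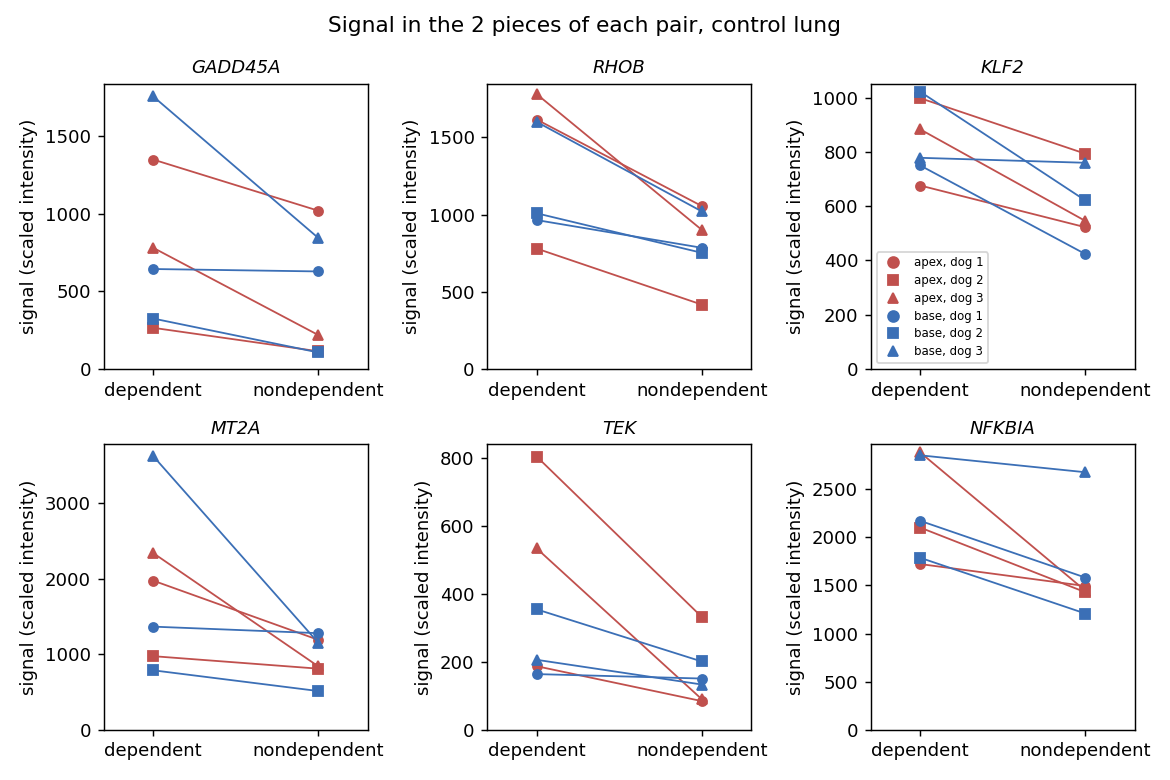
Scaled signal intensity in the dependent (left) and nondependent (right) piece of each pair for GADD45A, RHOB, KLF2, MT2A, TEK and NFKBIA, on linear axes that start at 0. Colours give the level and symbols the dog. The dependent piece is the higher of each pair in every panel, while the ranges of the groups overlap in each.

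On the lower side, CEL, the bile salt-stimulated lipase of the pancreas, had the largest mean difference of the 20, -1.71 ± 0.38. Its signals were 4.6, 14.7 and 43.2 in dependent pieces, against 20.5, 51.5 and 95.5 in nondependent pieces. These are low levels for this array, and it was called Present on 1 dependent and 3 nondependent arrays. ODAD2, a docking protein of the dynein arms of cilia whose symbol was not in the dog table, had signals of 43.8, 102 and 185 in dependent pieces, against 130, 168 and 646 in nondependent pieces. Its difference of -1.22 ± 0.29 ranged from -0.11 at the apex of dog 3 to -2.73 at the base of dog 1.

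POGZ, a zinc finger protein that binds heterochromatin protein 1, had signals of 9.4, 35.9 and 48.1 in dependent pieces, against 37.4, 61.6 and 138 in nondependent pieces. It averaged -1.19 ± 0.32, with its other probe set lower too, at -0.70, in 6 of 6 pairs. Calcium-activated potassium channels appeared with KCNN4 (-0.89 ± 0.24) and KCNN3 (-1.18 ± 0.32), both read by a single probe set that was called Present on 7 and 5 of 12 arrays. PARG, which removes poly(ADP-ribose) chains, stood at -1.16 ± 0.31, the nucleotide sugar transporter SLC35D2 at -1.09 ± 0.29, the macrophage regulator MACIR at -0.996 ± 0.24, the antisense transcript MCM3AP-AS1 at -0.86 ± 0.23 and the phosphoinositide-binding PLEKHA2 at -0.84 ± 0.23. SLC35D2 was called Present on only 4 of 12 arrays. The antisense transcript was not found in the dog table by its symbol.

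Gene groups of lung mechanics, flow and inflammation were then read as lists, each with the gene's brightest tested probe set. In none of 29 lists did a member pass the adjusted threshold, against 0 of all 11090 genes, of which 5267 were higher and 5823 lower in dependent lung (47.5% higher) with a median difference of -0.01. The median of a list lay between -0.13 and 0.25, above 0 in 16 lists and below it in 13. At an unadjusted p under 0.05 there were 287 genes in each direction (5.18% in all), the background for the counts that follow. In a piece of tissue, fewer cells of a type and less RNA per cell cannot be told apart.

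**Figure D4:**
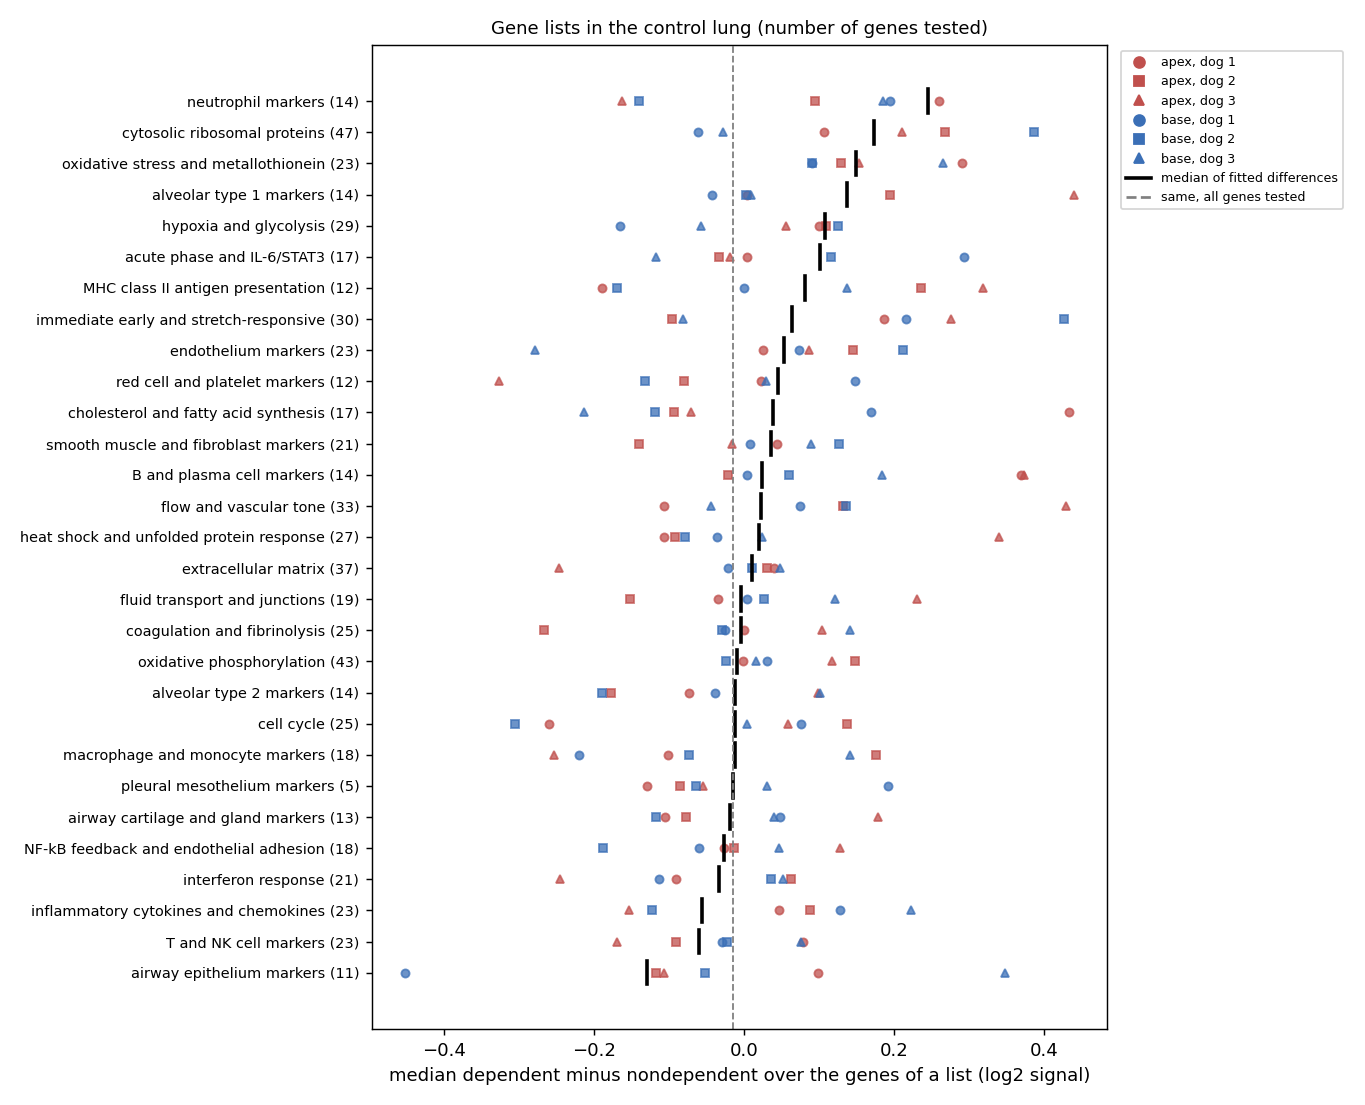
Median dependent minus nondependent difference (log2 signal) over the tested genes of each of 29 lists, with the number of genes in brackets. Points are the 6 pairs, black bars the median of the fitted differences of the genes and the dashed line the same median over all genes, -0.01. The pairs of most lists fall on both sides of 0, and those of the oxidative stress and metallothionein list lie above it in 6 of 6 pairs, from 0.09 to 0.29.

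Metallothioneins, small proteins that bind zinc and copper and buffer oxidants, were read within the oxidative stress list. That list had 16 of 23 tested members higher, a median of 0.15 (all genes -0.01), a median above 0 in each of the 6 pairs, and 5 members at an unadjusted p under 0.05, all higher and all metallothioneins. MT2A had signals of 786, 1668 and 3621 in dependent pieces, against 511, 995 and 1277 in nondependent pieces. The dependent piece was the brighter in 6 of 6 pairs, by 0.81 ± 0.21 on average and by 0.09 at the base of dog 1, although the groups overlapped. MT1X, with signals of 1832, 4163 and 5792 in dependent pieces and 718, 2735 and 3592 in nondependent pieces, averaged 0.65 ± 0.18 higher, and MT1H, MT1F and MT1E stood at 0.62, 0.54 and 0.37. All 6 human metallothionein symbols tested were higher on average, from 0.34 to 0.81, MT2A and MT1X in 6 of 6 pairs and the other 4 in 5 of 6, but the dog gene table holds only 2 genes of the metallothionein 1 and 2 families, MT1E and MT2A, so these probe sets may read the same dog transcripts and do not count as separate genes. The other 17 members, peroxidases, thioredoxin and glutathione genes, had a median of 0.06 and none at an unadjusted p under 0.05. The haem oxygenase gene HMOX1 averaged 0.17 ± 0.20.

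Immediate early genes, which respond within minutes to stretch and other stimuli, had 21 of 30 tested members higher with a median of 0.06, and 6 at an unadjusted p under 0.05, all of them higher. FOS, a subunit of the AP-1 transcription factor, had signals of 610, 1755 and 1982 in dependent pieces, against 606, 1080 and 1535 in nondependent pieces. It was higher in 5 of 6 pairs (0.59 ± 0.23), and its sign was opposite at the apex of dog 2, at -0.66. DUSP2, a phosphatase of MAP kinases, averaged 1.23 ± 0.33 at signals between 11.7 and 136, with 4 dependent and 1 nondependent arrays called Present. Other well-known stretch genes stood closer to 0: EGR1 at 0.01 ± 0.22, JUN at 0.07 ± 0.20 (other probe sets at 0.10, -0.01 and -0.47), CCN1 at 0.03 ± 0.15, CCN2 at 0.00 ± 0.46 and ATF3 at -0.16 ± 0.19. MYC, a growth regulator, averaged 0.36 ± 0.19. The matrix genes HAS2, a hyaluronan synthase, and VCAN, the proteoglycan versican, stood at 0.18 ± 0.32 and 0.05 ± 0.17.

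Genes of blood flow and vascular tone were split in sign, 18 of 33 higher with a median of 0.02. KLF2, the transcription factor that laminar shear induces in endothelium, had signals of 676, 830 and 1021 in dependent pieces, against 423, 583 and 793 in nondependent pieces. It was higher in 6 of 6 pairs by 0.50 ± 0.15, from 0.03 at the base of dog 3 to 0.82 at the base of dog 1. Its relative KLF4 stood at 0.14 ± 0.15, and the nitric oxide synthase NOS3, which KLF2 is known to induce, at -0.08 ± 0.23. Adrenomedullin (ADM) and its receptor partner RAMP2 stood at -0.01 ± 0.28 and 0.18 ± 0.22, the vasoconstrictor EDN1 at -0.75 ± 0.54 with 3 of 6 pairs on either side (0.33 without dog 3), and the growth factor VEGFA at 0.32 ± 0.16.

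Endothelial markers, 13 of 23 higher with a median of 0.05, included TEK and VWF, the von Willebrand factor (0.42 ± 0.18, higher in 6 of 6 pairs), whereas PECAM1 stood at -0.15 ± 0.21 and the angiotensin-converting enzyme ACE at 0.13 ± 0.21. The mean log2 signal of 6 defining endothelial markers was 6.99 to 7.57 in dependent pieces, against 6.69 to 7.12 in nondependent pieces, higher in 5 of 6 pairs by 0.31 ± 0.20 (SD, n = 6 pairs). Without TEK, itself among the leading genes, the mean of the other 5 was higher in 4 of 6 pairs by 0.16 ± 0.24, a version chosen after the data were seen. The mean of 6 alveolar type 1 markers was higher in 5 of 6 pairs, by 0.18 ± 0.27. The mean of 6 alveolar type 2 markers was higher in 4 of 6 pairs, by 0.01 ± 0.24. HBB, the beta chain of haemoglobin and a marker of retained blood, averaged 0.34 ± 0.25 higher, with 2 of 6 pairs above 0 and 1.71 at the apex of dog 3. Its other probe sets, Present on all 12 arrays, were each higher in 5 of 6 pairs, by 0.30 ± 0.16 and 0.55 ± 0.19. The part of blood content or endothelial share in the flow genes was not tested.

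Alveolar type 1 markers, the flat cells of gas exchange, were higher in 9 of 14 with a median of 0.14. AGER, their receptor for advanced glycation end products, had signals of 963, 1980 and 3751 in dependent pieces, against 469, 1866 and 2531 in nondependent pieces (0.44 ± 0.20). The 3 apical pairs gave 0.73 to 1.04 and the 3 basal pairs -0.54 to 0.40. CAV1, which coats caveolae of type 1 and endothelial cells, averaged 0.30 ± 0.13. Alveolar type 2 markers, the cells that make surfactant, were even, 7 of 14 higher: SFTPC had signals of 2387, 2946 and 4078 in dependent pieces, against 2377, 3046 and 3254 in nondependent pieces (0.03 ± 0.16), and SFTPB stood at -0.08 ± 0.16. LAMP3, a protein of the lamellar bodies, averaged 0.67 ± 0.30, with 1.36 at the apex and -0.02 at the base. It was called Present on 3 dependent and 5 nondependent arrays. NKX2-1, the other leading member of that list, ran the other way at -0.44 ± 0.20, lower in 4 of 6 pairs, while its other probe set stood at 0.33. The ion and water transport list had 9 of 19 higher, with the kinase SGK1, which stimulates the epithelial sodium channel, at 0.47 ± 0.16 and the water channel AQP3 at 0.39 ± 0.14, both higher in 6 of 6 pairs. Other probe sets of AQP3 disagreed, at 0.20 with 4 of 6 pairs higher and at -0.30 with 0 of 6.

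Inflammatory cytokines and chemokines were balanced, 11 of 23 higher with a median of -0.06. CXCL2, a neutrophil chemokine, had signals of 72.0, 79.2 and 127 in dependent pieces, against 30.7, 50.4 and 95.8 in nondependent pieces, higher in 6 of 6 pairs (0.77 ± 0.24). The anti-inflammatory IL10 stood at -0.50 ± 0.20. IL6 averaged 0.33 ± 0.18, CXCL8 0.16 ± 0.31, IL1B -0.12 ± 0.15 and TNF 0.09 ± 0.17. NFKBIA, the inhibitor that NF-kB induces as feedback, had signals of 1723, 2138 and 2884 in dependent pieces, against 1209, 1471 and 2678 in nondependent pieces, with all 6 pairs higher (0.48 ± 0.15), while 9 of 18 genes of its list were higher. The adhesion molecules SELE, VCAM1 and ICAM1 stood at -0.90 ± 0.42, -0.33 ± 0.26 and 0.09 ± 0.13. The apex pair of dog 1 alone gave -3.62 for SELE.

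Neutrophil markers had the highest median of the lists, 0.25, with 12 of 14 higher and none at an unadjusted p under 0.05. S100A9, a calcium-binding protein of neutrophil cytosol, averaged 0.30 ± 0.16 and the gelatinase MMP9 0.32 ± 0.17. The median over the list's genes was above 0 in 4 of 6 pairs, and the mean of 4 defining markers was higher in 3 of 6. Of these 4, S100A8 stood at -0.28 ± 0.25, higher in 1 of 6 pairs. CSF3R and MPO, beside S100A9, stood at 0.12 ± 0.27 and 0.32 ± 0.25. Macrophage and monocyte markers had 8 of 18 higher, T and NK cell markers 10 of 23, and B and plasma cell markers 7 of 14. Among the last, the immunoglobulin light chain IGLC1 averaged 0.75 ± 0.23, higher in 4 of 6 pairs, and CD79A 0.40 ± 0.16, higher in 6 of 6. MS4A1 and IGHG1, defining markers of these cells, stood at -0.15 ± 0.16 and -0.04 ± 0.17, each higher in 2 of 6 pairs. IGLC1 was not in the dog table by its symbol.

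Ribosomal protein genes of the cytosol leaned one way without large differences: 36 of 47 were higher, 76.6% against 47.5% of all genes, with a median of 0.17 and 6 at an unadjusted p under 0.05. RPL9 averaged 0.40 ± 0.14 and RPS24 0.35 ± 0.14. The list's median was above 0 in 4 of 6 pairs, from -0.06 at the base of dog 1 to 0.39 at the base of dog 2. The share of Present calls in the same pairs ran from -8.69 to 5.93 percentage points, dependent minus nondependent, with -8.69 at the base of dog 2. Whether that moves the list was not tested. Respiratory chain genes were even, 21 of 43 higher with a median of -0.01.

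Among the other groups, interferon response genes had 7 of 21 higher (median -0.03; 11 of 21 and 0.0086 without the apex pair of dog 3), extracellular matrix 20 of 37, coagulation 12 of 25, hypoxia and glycolysis 16 of 29, MHC class II 7 of 12 and cell cycle 12 of 25. In hypoxia, HIF1A averaged 0.27 ± 0.14 and the glycolytic enzyme ENO1 -0.38 ± 0.16, with other probe sets of ENO1 at 0.02 and 0.26. COL1A1, COL3A1 and ELN, the main structural genes of the lung's matrix, stood at 0.13 ± 0.13, -0.13 ± 0.21 and 0.05 ± 0.18. Airway epithelium had 5 of 11 higher with opposite values for its leading members, the gel-forming mucin MUC5B at 0.92 ± 0.25 and the trefoil factor TFF3 at -0.53 ± 0.23, each with the same sign in 6 of 6 pairs. Airway cartilage markers had 5 of 13 higher. Of the acute phase and STAT3 list 10 of 17 were higher (median 0.10), with the transcription factor CEBPB at 0.45 ± 0.18 and higher in 6 of 6 pairs. Heat shock and unfolded protein genes had 15 of 27 higher, cholesterol and fatty acid synthesis 9 of 17, smooth muscle and fibroblast markers 12 of 21, red cell and platelet markers 7 of 12 and the wider list of mesothelial markers 2 of 5. Without the apex pair of dog 3, the medians of the oxidative stress, neutrophil and ribosomal lists were 0.20, 0.31 and 0.16, and the immediate early list had 16 of 30 higher in place of 21. The median of 9 of the 29 lists changed sign without that pair, 6 from below to above 0 and 3 from above to below. Inflammatory cytokines stood at 0.08 in place of -0.06, airway epithelium at 0.03 in place of -0.13 and MHC class II at -0.05 in place of 0.08, and the type 1 markers kept their sign at 0.07 in place of 0.14.

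Other probe sets of the genes named in the lists did not always share the sign of the brightest one. All of those of SFTPC (4), VEGFA (3), COL3A1 (3) and ICAM1 (2) did, as did the single other ones of CAV1 (0.07) and KLF4 (0.48). The counts were 2 of 3 for IGLC1, 2 of 4 for VCAN, 1 of 3 for SFTPB and 1 of 3 for COL1A1. The single other probe set had the opposite sign for CXCL8 (-0.65), IL1B (0.16), PECAM1 (0.01), EGR1 (-0.06), CCN1 (-0.14) and ELN (-0.42).

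The position difference was next taken at each level. At the base, limma called 0 probe sets with a smallest adjusted p of 0.991, and 528 (2.69%) had an unadjusted p under 0.05 (1.22% higher and 1.47% lower). Without dog 3 the base had 1140 such probe sets and still none past the adjusted threshold, with a smallest adjusted p of 0.0853. At the apex it also called 0, with a smallest adjusted p of 0.668 and 1176 (6%) at an unadjusted p under 0.05 (2.97% higher and 3.02% lower). The median 95% interval reached 0.72 to either side at either level, since each rests on 3 pairs. A test of the base difference minus the apex difference called 0, with a smallest adjusted p of 0.9995 and 710 probe sets (3.62%) at an unadjusted p under 0.05 (1.71% with the higher difference at the base and 1.91% with the lower), so no probe set was shown to differ between the levels.

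The genes with the smallest p at a level are given as values. ITM2C, a membrane protein that inhibits amyloid precursor processing, averaged 0.35 at the base, against 1.60 at the apex, where its 3 pairs gave 1.57, 1.58 and 1.65. EIF3K, a subunit of a translation initiation factor, averaged -0.02 at the base, against 1.45 at the apex. SDF4, a calcium-binding protein of the Golgi, stood at -0.20 at the base, against -1.58 at the apex, and the zinc finger gene ZNF669 at -0.10, against -2.66, with signals as low as 6.3. BTN2A2, a butyrophilin that restrains T cells, averaged -1.37 at the base, where its pairs gave -1.91 to -1.09, against 0.04 at the apex, and its other probe set averaged 0.09 over both levels. YIPF3, a Golgi protein, stood at -1.20 and -0.07, and RPRD2, a partner of RNA polymerase II, at -2.73 and 0.48, for base and apex. A further set of genes led the base minus apex test: the circadian factor DBP at -0.53 at the base, against 1.04 at the apex, the kinase CDK14 at 0.78, against -0.76, and RIPPLY3 at 0.78, against -1.19. Over both levels the named probe sets of DBP and CDK14 averaged 0.26 and 0.01, each with 3 of 6 pairs higher. Their other probe sets stood at -0.15 and -0.43. EIF3K averaged 0.72 over both levels, and its other probe sets 0.21 and 0.30, with the same sign. Values of these other probe sets at each level are not given here. ZNF669 and BTN2A2 were not in the dog table.

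The same contrast in the injured lung of these dogs served as comparison, again with 6 pairs from 3 animals. Lavage, side and the absence of PEEP differ together between the lungs. A test of the control-lung difference minus the injured-lung difference called 0 of 19605 probe sets, with a smallest adjusted p of 0.759 and 1238 (6.31%) at an unadjusted p under 0.05 (2.7% with the higher difference in the control lung and 3.61% with the lower). In the injured lung alone the contrast called 0, with 1277 (6.51%) at an unadjusted p under 0.05. Of the 20 leading genes, which were chosen in the control lung, 7 had the same sign in the injured lung: 4 of the 10 higher ones, TRIM15 (0.83), TEK (0.68), PACSIN3 (0.55) and CACYBP (0.33), and 3 of the 10 lower ones. GADD45A stood at 1.03 in the control lung and -0.06 in the injured lung, RHOB at 0.64 and -0.35, and POLG at 0.88 and -0.29.

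The genes with the smallest p in that test of difference had opposite signs in the lungs, which the choice itself favours, and none passed. SGK1 averaged 0.47 in the control lung, with 6 of 6 pairs above 0, and -0.77 in the injured lung, a difference of 1.24 ± 0.26. KLF2 averaged 0.50 in the control lung and -0.45 in the injured lung (0.94 ± 0.23). NR4A2, an orphan nuclear receptor that belongs to the immediate early genes, stood at 0.32 in the control lung and -1.35 in the injured lung (1.67 ± 0.40), and URI1, a prefoldin-like chaperone, at 0.47 and -0.69 (1.16 ± 0.27). POGZ ran the other way, at -1.19 in the control lung and 0.85 in the injured lung (-2.05 ± 0.46). Other probe sets of NR4A2 stood at -0.27 and -0.39 in the control lung, and those of URI1 at -0.05 and -0.14, opposite in sign to the one named. Among the lists, the metallothionein and oxidative stress median was 0.15 in the control lung and -0.07 in the injured lung, the ribosomal median 0.17 and -0.24, and the neutrophil median 0.25 and 0.21.

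**Figure D5:**
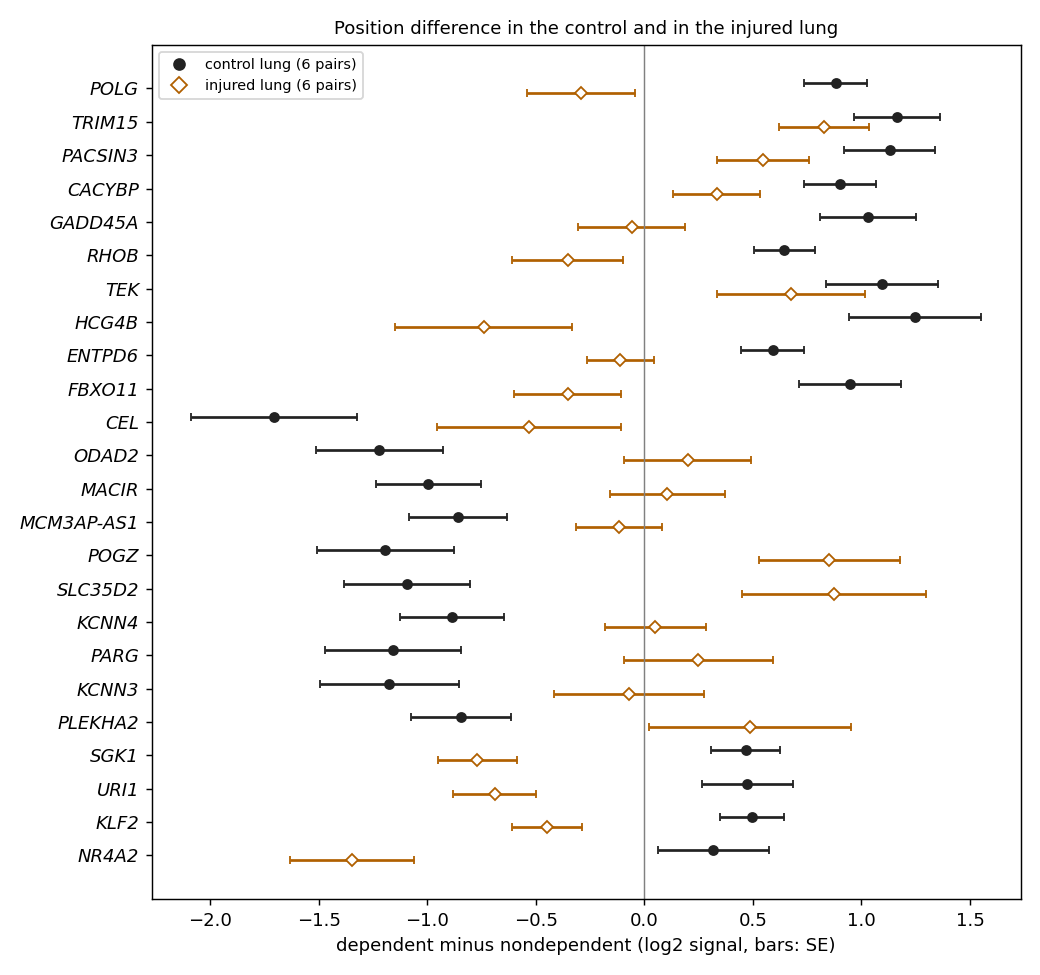
Dependent minus nondependent difference in log2 signal (points, mean of 6 pairs) with its SE (bars) in the control lung (filled circles) and in the injured lung (open diamonds) for the leading genes of the control lung and those of the test of difference. Genes such as TRIM15 and TEK lie on the same side of 0 in both lungs. SGK1, KLF2 and NR4A2, chosen by the test of difference, lie on opposite sides, which that choice favours. No difference between the lungs passed an adjusted p of 0.05.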

How the data were processed

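RNA from 24 pieces of dog lung had been hybridised to a human Affymetrix array, per the file headers, and the 12 control-lung arrays are described. The deposited values are signal intensities per probe set with detection calls, scaled by the authors to a common trimmed mean. The deposited series table equals the arrays' own files (largest difference 0). Which software and settings made them is not given in the sources used here. Of 22283 probe sets, 68 controls and 11 with no call were left out, and the 19605 with a Present call on 4 or more of the 12 arrays were tested. The 2 zero signals among them were set to 0.1 before log2. Names came from the platform annotation: 16906 tested probe sets had 1 symbol, 906 several and 1793 none, and 9942 of 11090 symbols (89.65%) were found in RefSeq's dog table for UU_Cfam_GSD_1.0. Groups came from the titles. The number of arrays limits the precision, and the pieces of a dog are not separate animals.

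Differences were fitted with limma 3.58.1 in R 4.3.3, with the 6 pairs of dog and level as a block, moderation by eBayes that follows signal intensity, and adjustment by Benjamini-Hochberg at 0.05. Apex, base and their difference used the same fit. The control minus injured test used all 24 arrays with 12 pairs, and the SEs given for the injured lung come from that fit. The pairing comes from the labels, as both pieces of a pair are from the same lung of 1 animal. Deviations from group means correlated at a median of 0.28 within a pair (0.14 to 0.35) and 0.18 between the levels of a dog (0.11 to 0.35). Between dogs the median was -0.16, but taking out the mean of 3 dogs itself pushes that value below 0. Array measures were tested by exact sign flips over the 6 pairs. Levels across the 3 dogs share animals, so p-values over 6 pairs measure the spread between pieces as well as animals.

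Named genes were the 10 with the smallest p in each direction where fewer than 5 passed, the 5 with the smallest p for each other contrast, the 2 with the smallest p in each list, and a set of known lung genes. Genes named from a contrast are given by the probe set with the smallest p, which was not always the brightest, and genes of the lists and the set by their brightest tested probe set. The members and lists were chosen with earlier results of these data known. Alternatives covered the block, the unit of replication, normalization, offset, filters, the variance model, RNA quality covariates, other probe sets and each dog left out. The script was also tested on simulated data.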

Additional observations from a re-analysis of the deposited data

Results flagged for a closer look

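In 6 of 107 groups of 6 values looked at (the pair differences of 99 named genes and 8 groups of array measures), 1 value lay far from the other 5, by a rule that chance alone meets in about 1 of 20 groups. SELE, the endothelial selectin, stood at -3.62 in the apex pair of dog 1, against -0.69 to -0.06 in the other pairs, so its mean of -0.90 rests largely on that pair. KLRD1, a receptor of NK cells, stood at -2.19 in the same pair, against -0.55 to 0.27. The dependent piece of that pair had the highest 3' minus 5' signal of GAPDH, 2.43 against 1.32 to 1.72 in the other dependent pieces, and its nondependent partner stood at 2.33. SLC35D2 stood at -2.58 in the base pair of dog 2, against -1.07 to -0.31, and NR4A2 at -1.23 in the apex pair of dog 2, against 0.32 to 1.00. VCAM1, a vascular adhesion molecule, stood at 0.98 in the base pair of dog 1, against -0.95 to -0.24 elsewhere.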

How the results depend on the processing

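All 65 alternative counts, over the 5 contrasts, gave 0 probe sets past the adjusted threshold. Without the replicate block limma called 0, and its number of unadjusted calls was 513, against 997 with the pairing, and leaving out dog 3 gave 0 with 1240 and the smallest adjusted p of any setting of that contrast, 0.0972. Without the block the unadjusted calls numbered 565 in place of 1176 at the apex, 248 in place of 528 at the base, 292 in place of 710 for base minus apex and 614 in place of 1238 for control minus injured lung. At the base they numbered 1188 with the RNA quality covariates and 1140 without dog 3. Of 1633 alternative values for 107 gene results, 1617 kept their sign and stayed on the same side of the threshold, and 16 turned round. The cause was not tested. That count does not cover every gene named above. Among those outside it are CXCL8, IL1B, PECAM1, EGR1, CCN1, ELN, ACE, ADM, JUN, CCN2, HAS2, VCAN, COL1A1 and COL3A1. By the mean of the remaining pair differences, ACE, HAS2, VCAN and COL3A1 also change sign when a certain dog is left out. The count thus does not show how stable such genes are. For genes named only from a level or from control minus injured lung, such as NR4A2 and URI1, the count leaves out the other probe sets. Leaving out each dog in turn, SFTPC ran from -0.0947 to 0.217, SFTPB from -0.252 to 0.0695, GPM6A from -0.279 to 0.0986 and EDN1 from -1.46 to 0.326. With all dogs GPM6A stood at -0.10. SFTPC also stood at -0.130 with quantile normalization and -0.0206 without the apex pair of dog 3, the last an alternative chosen after seeing the data. By the mean of the gene's other probe sets, POLG stood at -0.19, FBXO11 at -0.57, ENO1 at 0.14, AQP3 at -0.0457 and SFTPB at 0.0091. Each is opposite in sign to the value given above. By the same mean, ELOVL6 stood at 0.17 in place of -0.64 and NKX2-1 at 0.33 in place of -0.44. KLRD1 stood at 0.19 in place of -0.49, and NAMPT at -0.13 in place of 0.59 ± 0.22. Calls rest on 3 animals, and low signals near the detection limit, such as those of CEL, POGZ and ZNF669, carry wide intervals.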

Other observations

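Of the 20 probe sets whose groups did not overlap, which were looked at after their values were seen, EHD3, an endocytic recycling protein, had signals of 644 to 770 in dependent pieces, against 360 to 618 in nondependent pieces (0.43 ± 0.15). KMT2A, a histone methyltransferase, had 257 to 401 in dependent pieces, against 113 to 251 in nondependent pieces (0.78 ± 0.20). CD46, a complement regulator, had 32.9 to 40.9 in dependent pieces, against 52.8 to 94.9 in nondependent pieces (-0.81 ± 0.24). CYSLTR2, a receptor for cysteinyl leukotrienes, had 22.7 to 39.0 in dependent pieces, against 39.8 to 89.3 in nondependent pieces (-0.91 ± 0.29). None passed the limma adjusted threshold, with an adjusted p of 0.903 for each of the 4.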
